A study of Mus musculus with 12 samples.

Results

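The circadian clock genes measured here are 10 genes, Per1, Per2, Per3, Dbp, Tef, Nr1d1, Nr1d2, Arntl, Clock and Ciart, taken by their symbols from a table of 20718 genes in testes of mice injected with lentivirus. All 10 were found, and all 10 passed the filter on low counts that left 16296 genes to test. There were 4 groups of 3 libraries, and every group had received a virus, so no uninjected testis serves as a reference. The RNA under study was lncRNA5251, which is long and codes for no protein. F0_5251KD testes received virus built in the LV3 vector with 3 short hairpin RNAs (shRNAs) to knock it down, and F0_3NC testes the same vector with a control shRNA. F0_5251OV testes received virus built in the LV5 vector with lncRNA5251 for overexpression, and F0_5NC testes the LV5 vector alone. The prefix F0 marks the injected generation.

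Per the study's methods, male ICR mice (the labels write IRC) were injected at 4 weeks of age, kept until 9 weeks, housed with females for 4 days and kept for another 4 days before collection. They lived under 12 h of light and 12 h of dark. Neither the labels nor the methods state the hour of collection. Whether each library stands for another animal is also left unsaid by the labels, so the p-values below measure the spread between libraries only, which may be technical. lncRNA5251 was not matched to a row of the table, and its knockdown or overexpression was not checked here.

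The clock is a feedback loop of transcription that runs with a daily period in most mammalian cells. CLOCK and the product of Arntl (also called Bmal1) bind E-box elements together and switch on the Per genes, Ciart, Nr1d1, Nr1d2, Dbp and Tef. PER proteins and CIART repress CLOCK and its partner, the REV-ERB receptors encoded by Nr1d1 and Nr1d2 repress Arntl and Clock, and DBP and TEF carry the rhythm to further genes through D-box elements. In liver, kidney and many other tissues these RNAs swing widely with the time of day, Dbp and Arntl in opposite phase. The testis is known as a tissue in which rhythms of these RNAs are weak or absent, and in which Per1 is made in germ cells.

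The genes lie on several chromosomes in build GRCm38.p6. The activators are Arntl (gene ID 11865, chr7:113178471-113314126, plus strand) and Clock (12753, chr5:76209868-76305603, minus strand). The repressors are Per1 (18626, chr11:69095108-69109965, plus), Per2 (18627, chr1:91415977-91459351, minus), Per3 (18628, chr4:150997018-151044707, minus) and Ciart (229599, chr3:95878500-95882257, minus). The REV-ERB receptors are Nr1d1 (217166, chr11:98767932-98775377, minus) and Nr1d2 (353187, chr14:18204056-18239106, minus). The output factors are Dbp (13170, chr7:45705100-45710203, plus) and Tef (21685, chr15:81802673-81826863, plus).

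The elements through which the loop acts can be read in the promoters of several of these genes. RefSeq windows of 300 bases (250 before to 50 after a transcription start, build GRCm38.p6) were matched for 9 of the 10 genes, 14 windows in all, some genes having several starts. The E-box CACGTG was found in 3 of the 9, Ciart, Per1 and Tef, against 8.09% of all 27025 genes with a window. The D-box TTATGTAA was found in 1 of the 9, Per3, against 1.11% of all genes. Both strands were searched, and a match describes the letters only. The stretches below are shown because they hold the E-box, through which CLOCK acts, or the D-box, through which DBP and TEF act. They are written 5′ to 3′ on the strand of the gene, with the element in capitals.
Ciart E-box, chr3:95882329-95882354, minus strand: catctagagtCACGTGttgccggtaa
Ciart E-box, chr3:95882271-95882296, minus strand: cagggggaggCACGTGcagaaccgca
Ciart E-box, chr3:95882257-95882282, minus strand: tgcagaaccgCACGTGtctgggaggg
Per1 E-box, chr11:69098773-69098798, plus strand: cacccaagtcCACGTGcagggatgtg
Tef E-box, chr15:81802536-81802561, plus strand: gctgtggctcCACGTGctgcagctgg
Tef E-box, chr15:81811266-81811291, plus strand: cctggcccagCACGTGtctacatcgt
Per3 D-box, chr4:151044853-151044880, minus strand: gacccgcgcgTTATGTAAggtactcggg
Per3 D-box, chr4:151044806-151044833, minus strand: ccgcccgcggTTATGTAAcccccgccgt

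Ciart held 3 E-boxes in a single window, of which the nearest ended 38 bases before the start. The Per3 window held 2 D-boxes, ending 197 and 150 bases before the start, and the 2 Tef matches lay in windows of different starts. The element AGGTCA, which REV-ERB and ROR receptors recognise, was found in 4 of the 9 genes, Arntl, Clock, Nr1d2 and Per1, against 18.1% of all genes. The cyclic AMP response element TGACGTCA was found in 0 of the 9, against 2.03% of all genes, which says only that these letters are not in these windows.

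The libraries held 15431383 to 16355720 estimated read counts each, so their depth was nearly equal. Levels below are CPM, in which every library is scaled to the same total, or RPKM, which also divides by transcript length and is used where genes are compared with each other. The tissue label matched the markers. The 10 elongated spermatid markers summed to 21901 to 28379 CPM in each library and the 12 Sertoli cell markers to 764 to 1483 CPM.

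A pair of libraries stood apart from the others in base composition. Replicate 2 of F0_3NC and replicate 1 of F0_5251OV read low in genes with GC-rich transcripts and high in genes with AT-rich ones. The median deviation from the group mean of the 1489 genes richest in GC, minus that of the 1489 poorest, was -0.46 and -0.42 on the log2 scale in these 2 libraries. It lay between -0.08 and 0.28 in the other 10. The same 2 libraries had the highest sums of the spermatocyte markers, 1728 and 1675 CPM against 1306 to 1457 CPM in the other 10, and the lowest sums of the Sertoli cell markers, 764 and 792 CPM against 929 to 1483 CPM. The clock genes span much of the GC range of the transcriptome. Clock (40.9% GC) and Nr1d2 (41.8%) lie low, and Dbp (61.6%), Per1 (59.4%) and Nr1d1 (56.8%) lie high, where the median gene has 49.6%.

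All 10 genes were expressed in every library, at levels that spread widely from gene to gene. Per length, Per1 was the most abundant at 35.2 ± 4.11 RPKM (SD, n = 12), above 85.5% of the 20718 genes in the table. Tef followed at 10.4 ± 1.48, Nr1d1 at 7.6 ± 0.858, Nr1d2 at 5.52 ± 0.992, Ciart at 5.45 ± 0.621, Dbp at 4.46 ± 1.08 and Clock at 4.42 ± 0.653 RPKM. The lowest were Arntl at 2.06 ± 0.199, Per3 at 1.55 ± 0.187 and Per2 at 1.51 ± 0.194 RPKM. The order has 2 clear steps. The lowest Per1 library (26 RPKM) was above the highest Tef library (12.4), and the lowest Clock library (3.46) above the highest Arntl library (2.46). Neighbours elsewhere in the order overlapped in their ranges over the 12 libraries. Within the activator pair Clock was more abundant than Arntl, and within the Per family Per1 was far above Per2 and Per3, whose ranges overlapped.

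**Figure D1:**
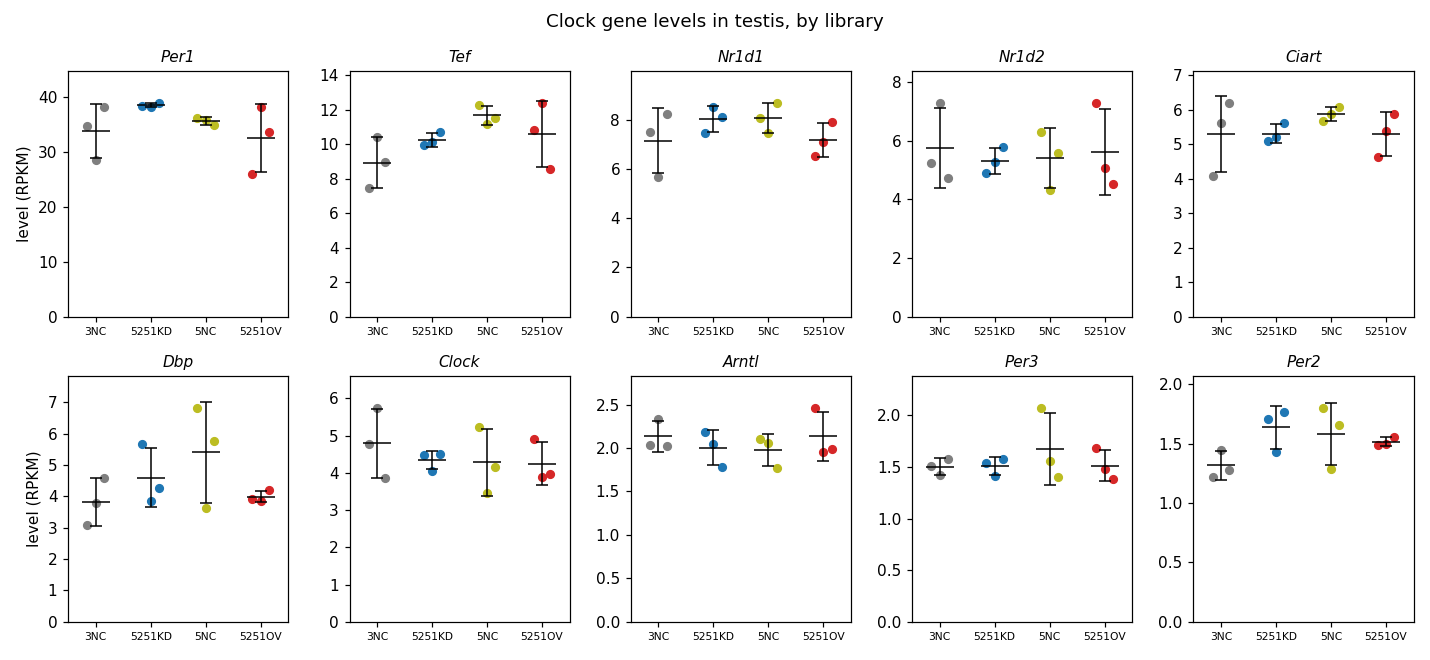
Level of each clock gene in RPKM (y axis, from 0) in the 12 libraries by group (x axis, prefix F0 left off). Points are libraries and black bars the mean ± SD of 3. Some pairs of groups keep apart in this unit. Among them, F0_5251KD (38.3 to 39 RPKM) lies just above the other groups (highest 38.2) for Per1, and F0_3NC lies below F0_5NC for Tef.

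Across all 12 libraries the levels moved little. The ratio of the highest to the lowest library in CPM ran from 1.39 for Arntl to 2.1 for Dbp, and the coefficient of variation from 9.28% for Arntl to 22.3% for Dbp. The highest group mean exceeded the lowest by a ratio between 1.07 for Ciart and 1.41 for Dbp. The ratio of Dbp to Arntl in RPKM, genes whose RNAs peak in opposite phase in rhythmic tissues, lay between 1.51 and 3.25. It was 1.51, 1.62 and 2.28 in F0_3NC, 3.25, 1.76 and 3.25 in F0_5NC, 2.61, 1.88 and 2.4 in F0_5251KD, and 1.59, 1.98 and 2.11 in F0_5251OV. The F0_5NC libraries spanned nearly the whole range by themselves.

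Knockdown of lncRNA5251 was compared with its control shRNA to ask whether clock RNAs responded. None of the 10 genes passed the test of edgeR at an adjusted p of 0.05, where 0.0245% of all tested genes did (4 of 16296). DESeq2 also called 0 of the 10. The log2 fold changes ran from -0.14 for Clock to 0.29 for Per2 with a median of 0.08, and 6 of the 10 were higher, beside a median of 0.00 over all genes. At an unadjusted p under 0.05 there was 1 of the 10, Per2, and 4.74% of all genes. In CPM the groups kept apart for 0 of the 10, which was so for 11.8% of all genes.

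Per2, a repressor of the loop, read 6.76, 8.02 and 6.87 CPM in F0_3NC and 9.34, 7.71 and 9.51 CPM in F0_5251KD. Its lowest knockdown library was below the highest control library. The log2 difference was 0.29 (SE 0.134, 95% interval 0.01 to 0.58, adjusted p = 0.897 by edgeR). Per1 read 169, 136 and 188 CPM in F0_3NC and 179, 184 and 187 CPM in F0_5251KD. The knockdown libraries were close together and in CPM lay inside the range of the controls. In RPKM they read 38.3 to 39, just above the controls at 28.5 to 38.2. The log2 difference of 0.16 (95% interval -0.12 to 0.44) became 0.04 without replicate 2 of F0_3NC, one of the 2 libraries set apart by GC. Dbp, the output gene, read 4.51, 5.35 and 6.8 CPM in F0_3NC and 8.13, 5.83 and 6.38 CPM in F0_5251KD. Its log2 difference was 0.29 with an interval of -0.17 to 0.75. The fitted level was also higher with knockdown for 9 of 12 Sertoli cell (median log2 difference 0.14) and 8 of 10 Leydig cell markers (0.23). So it was for 10 of 10 endothelial (0.24), 8 of 8 smooth muscle (0.11) and 7 of 10 macrophage markers (0.05). In each list 0 were called, and their part in the Dbp and Per2 values was not tested. Nr1d1 differed by 0.15, and by 0.00 without replicate 2 of F0_3NC, and Clock by -0.14, and by -0.00 without it. The intervals of all 10 genes lay inside a 2-fold change in either direction, and those of 9, all but Dbp, inside a 1.5-fold change.

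Overexpression of lncRNA5251 was compared with the empty vector in the same way. No clock gene passed the adjusted test with edgeR or with DESeq2, as was so for all genes with edgeR (0% called). At an unadjusted p under 0.05 there were 0 of the 10, against 8.77% of all genes, and for 0 of the 10 did the groups keep apart, against 13.9% of all genes. The log2 fold changes ran from -0.38 for Dbp to 0.16 for Arntl with a median of -0.08, and 7 of the 10 were lower.

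Dbp read 9.46, 5.48 and 8.5 CPM in F0_5NC and 5.76, 5.81 and 6.46 CPM in F0_5251OV. A pair of empty-vector libraries lay above all the overexpression libraries and the remaining one below them. The log2 difference was -0.38 (SE 0.211, 95% interval -0.84 to 0.07, adjusted p = 0.604 by edgeR), and -0.22 without replicate 1 of F0_5NC. Arntl, the activator, read 5.51, 5.81 and 4.92 CPM in F0_5NC and 6.83, 5.48 and 5.88 CPM in F0_5251OV, and its log2 difference of 0.16 was 0.07 without replicate 1 of F0_5251OV. Per1 read 161, 175 and 167 CPM in F0_5NC and 126, 185 and 166 CPM in F0_5251OV. At an unadjusted p under 0.05 were 5 of the 12 Sertoli cell markers, against 8.77% of all genes. All 12 had a lower fitted level in F0_5251OV than in F0_5NC (median log2 difference -0.26, 0 called). So did 10 of 10 Leydig cell (median -0.26), 9 of 10 endothelial (-0.31), 9 of 10 macrophage (-0.33) and 7 of 8 smooth muscle markers (-0.42), with 0 called in each list, and their part in the Dbp value was not tested. The low Per1 library is again one set apart by GC, and without it the log2 difference turned from -0.07 to 0.07. As in the knockdown comparison, the intervals of all 10 genes lay inside a 2-fold change, and those of 9, all but Dbp, inside a 1.5-fold change.

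**Figure D2:**
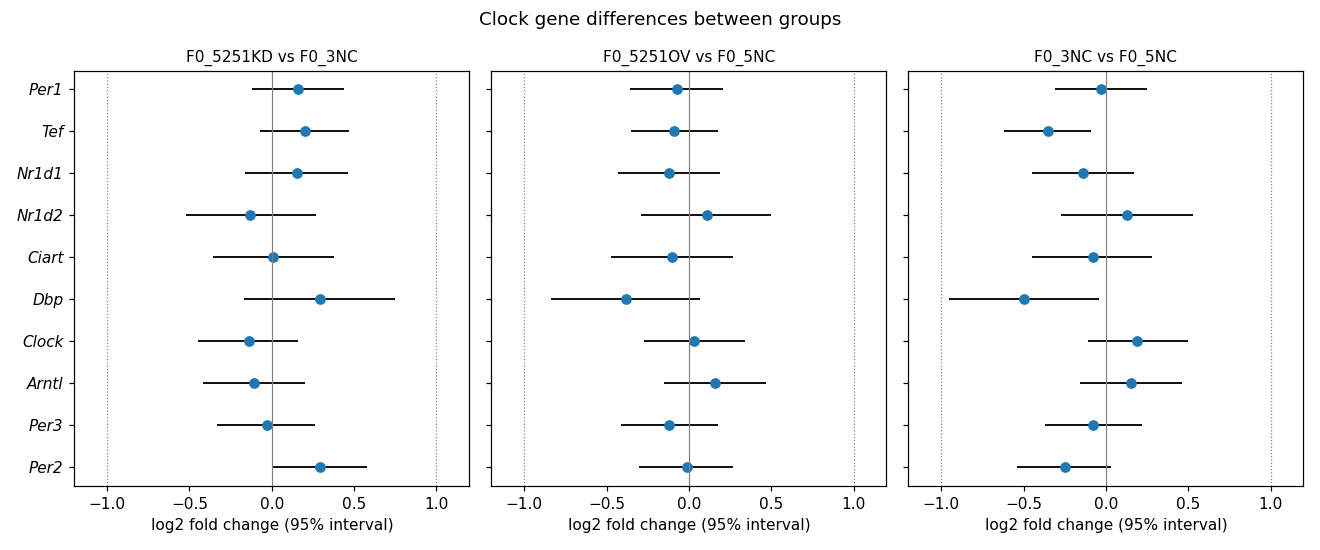
Log2 fold change of each clock gene (x axis) with its 95% interval (lines) in the knockdown, overexpression and control comparisons, from 1 edgeR fit of 12 libraries. Dotted lines mark a 2-fold change, and the intervals of all 10 genes lie inside them in the 3 comparisons.

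The 2 control groups, F0_3NC and F0_5NC, differ in vector and in the control shRNA, and they show how far clock RNAs differ where lncRNA5251 was not targeted. With edgeR 0 of the 10 genes passed, with DESeq2 0, and 0.331% of all genes did with edgeR (54 of 16296). The log2 fold changes of F0_3NC over F0_5NC ran from -0.50 for Dbp to 0.19 for Clock, with a median of -0.08. At an unadjusted p under 0.05 there were 2 of the 10, Tef and Dbp, against 11.9% of all genes. For 1 of the 10, Tef, the groups did not overlap, against 17% of all genes.

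Tef, a D-box activator like Dbp, read 30.1, 40.6 and 36.7 CPM in F0_3NC and 45.4, 46 and 46 CPM in F0_5NC. Every F0_3NC library was below every F0_5NC library, and the log2 difference was -0.35 (SE 0.123, 95% interval -0.62 to -0.09, adjusted p = 0.33 by edgeR). For Dbp the difference was -0.50 (SE 0.212, 95% interval -0.95 to -0.04, adjusted p = 0.399), and it was -0.34 without replicate 1 of F0_5NC, the library with the highest Dbp. That library also held the highest Per3 of the 12, 12.5 CPM where the other 11 read 8.78 to 10.4, and the highest Sertoli cell marker sum, 1483 CPM. Its Leydig cell marker sum was 3177 CPM, where the highest of the 12 was 3180 CPM in F0_5251KD. All 12 Sertoli cell markers had a lower fitted level in F0_3NC than in F0_5NC (median log2 difference -0.28, 0 called). Of these 12, 6 were at an unadjusted p under 0.05, against 11.9% of all genes. Also lower were 9 of 10 endothelial (median -0.14) and 7 of 10 macrophage markers (-0.28). The Leydig cell and smooth muscle lists were mixed, with 7 of 10 (-0.09) and 5 of 8 (-0.16) lower, and 0 were called in each list. The part of these markers in the Tef and Dbp values was not tested. In whole testis fewer cells of a type and less RNA per cell cannot be told apart.

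Setting both LV3 groups against both LV5 groups, 6 libraries each, gave 0 called of the 10 with edgeR and 0 with DESeq2, where edgeR called 0.706% of all genes (115 of 16296). The log2 differences lay between -0.21 for Tef and 0.11 for Clock. Tef was the 1 gene at an unadjusted p under 0.05, against 6.35% of all genes, with 38.5 ± 4.63 CPM in the LV3 groups and 44.4 ± 4.65 CPM in the LV5 groups (SD, n = 6; adjusted p = 0.712 by edgeR). Here the intervals of all 10 genes lay inside a 1.5-fold change. This contrast is the most precise of the set because each of its sides averages 6 libraries. Vector, insert and any handling that a vector's groups shared cannot be told apart in it.

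Whether knockdown and overexpression moved the clock genes differently was asked by testing 1 effect minus the other. No gene of the 10 passed with edgeR or with DESeq2, nor did any of all genes with edgeR (0%). Dbp was the 1 gene at an unadjusted p under 0.05, against 11.3% of all genes. Its effects of 0.29 and -0.38 differed by 0.67 (SE 0.3, 95% interval 0.02 to 1.32, adjusted p = 0.436). Somatic cell markers had differences of the same sign, with 0 called in each list. They were higher for 12 of 12 Sertoli cell markers (median log2 difference 0.42, 6 at an unadjusted p under 0.05), 9 of 10 Leydig cell markers (0.49), 10 of 10 endothelial markers (0.50) and 7 of 8 smooth muscle markers (0.58). Their part in the Dbp value was not tested. Dbp rests on few reads, 70.3 to 158 estimated counts a library, and on this contrast its interval reached beyond a 2-fold change. For any difference among the 4 groups edgeR and DESeq2 called 0 of the 10, against 0.454% of all genes with edgeR. There too 0 of the 10 were at an unadjusted p under 0.05, against 7.62% of all genes, and Tef had the smallest (adjusted p = 0.681).

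The remaining members differed little between groups. Per3, the third Per gene, differed between groups by -0.12 to -0.03 on the log2 scale in the knockdown, overexpression and control comparisons. Ciart read 5.73, 7.54 and 9.24 CPM in F0_3NC, 7.25, 8.32 and 8.31 CPM in F0_5NC, 6.99, 7.45 and 8.17 CPM in F0_5251KD, and 6.33, 7.5 and 8.46 CPM in F0_5251OV. The groups overlapped throughout, and its F0_3NC libraries spanned the values of all the others. Nr1d2 differed by -0.13, 0.11 and 0.13 in the 3 comparisons, and by 0.07, -0.11 and -0.06 when the library set apart by GC was left out of each. Clock was at 45.7 ± 8.46 CPM in F0_3NC, 39.9 ± 6.35 in F0_5NC, 41.3 ± 1.73 in F0_5251KD and 40.9 ± 4.75 in F0_5251OV (SD, n = 3), again with overlapping ranges.

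For 2 of the clock genes the reads cannot be assigned with certainty. Dbp shares 539 exonic bases with Sphk2 on the opposite strand, and Nr1d1 shares 263 with Thra. The library protocol names no step that keeps the strand. In all 12 libraries the estimated counts of Dbp and of Sphk2 were not whole, whereas their sum was whole within 0.011, and the same held for Nr1d1 and Thra. Sphk2 held 477 to 719 estimated counts a library, more than Dbp itself. The other 8 clock genes had whole counts in every library. Tef and Arntl also overlap antisense transcripts, by 193 and 33 exonic bases, so reads of the opposite strand may be among theirs.

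The wider clock network was followed in 23 further genes, listed with earlier results of these data known, of which 22 were tested and Rorb was too low. They hold the cryptochromes, the ROR receptors, the DEC repressors, kinases, ubiquitin ligases and other PAR-type factors. In the knockdown comparison edgeR called 0 of the 22 and DESeq2 0, with 0 at an unadjusted p under 0.05 against 4.74% of all genes. The smallest p was that of Csnk1e, a kinase that acts on PER proteins (log2 difference -0.35, adjusted p = 0.897). In the overexpression comparison edgeR and DESeq2 called 0, with 3 of the 22 at an unadjusted p under 0.05 against 8.77% of all genes. Cry1, a repressor, had the smallest p, with 46.7 ± 3.82 CPM in F0_5NC and 58.7 ± 2.95 CPM in F0_5251OV (SD, n = 3; log2 difference 0.33, adjusted p = 0.526 by edgeR). For the difference of effects both tools called 0, with 0 at an unadjusted p under 0.05 against 11.3% of all genes, and the PAR-type factor Hlf came closest (log2 difference 0.69, adjusted p = 0.442).

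A pair of repressors in this network did differ with the vector. Bhlhe40 encodes a DEC protein that competes at E-boxes, and Nfil3 encodes a repressor that competes with DBP and TEF at D-boxes. Bhlhe40 read 10, 15.1 and 13.1 CPM in F0_3NC and 11.7, 12.6 and 9.45 CPM in F0_5251KD. In the LV5 groups it read 6.53, 5.15 and 5.11 CPM in F0_5NC and 7.02, 6.52 and 3.68 CPM in F0_5251OV. All 6 LV3 libraries were above all 6 LV5 libraries, and the log2 difference was 1.08 (SE 0.158, adjusted p = 0.00401 by edgeR). Nfil3 read 7.08, 8.39 and 9.05 CPM in F0_3NC and 7.56, 6.54 and 7.98 CPM in F0_5251KD, against 5.09, 6.21 and 4.79 CPM in F0_5NC and 3.57, 3.85 and 5.1 CPM in F0_5251OV. Again the 6 and 6 libraries did not overlap, and the log2 difference was 0.71 (SE 0.121, adjusted p = 0.0129). The vector groups kept apart for these 2 of the 22, against 0.749% of all genes. These were the 2 called of 22, against 0.706% of all genes, and both stayed called under each of the 19 alternatives run, with adjusted p from 1.28e-07 to 0.0189 for Bhlhe40 and from 0.000234 to 0.0478 for Nfil3.

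Between the controls alone, Bhlhe40 was the 1 gene called of the 22, against 0.331% of all genes (log2 difference 1.19, SE 0.223, adjusted p = 0.0434). It stayed called in 5 of 14 alternatives, with adjusted p from 0.00046 with DESeq2 to 0.18 without replicate 3 of F0_5NC, and it was lost when any library of F0_5NC, or replicate 2 or 3 of F0_3NC, was left out. Nfil3 differed there by 0.61 (adjusted p = 0.236, and 0.17 to 0.557 over the alternatives). Neither passed with knockdown or overexpression. For Bhlhe40 the log2 differences were -0.18 (95% interval -0.64 to 0.28) and 0.03 (-0.47 to 0.54), and for Nfil3 -0.15 (-0.51 to 0.21) and -0.36 (-0.74 to 0.02). Over all 4 groups Bhlhe40 passed (adjusted p = 0.0275, where 0.454% of all genes passed) and Nfil3 did not (adjusted p = 0.0621).

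Genes that cells switch on within minutes of a stimulus, the immediate early genes, differed with the vector and with knockdown. Their 19 listed members summed to 279 to 323 CPM in F0_3NC, 166 to 180 in F0_5NC, 460 to 534 in F0_5251KD and 126 to 179 in F0_5251OV. All 19 were higher in the LV3 groups (median log2 difference 2.01), and edgeR called 15, against 0.706% of all genes called. In F0_3NC over F0_5NC 18 of the 19 were higher (median 1.47) and 10 were called, against 0.331% of all genes called. With knockdown 16 of the 19 were higher (median 0.81) and edgeR called 4, which were the 4 genes called in that comparison. Of the 19, 14 were at an unadjusted p under 0.05, against 4.74% of all genes. Over all genes, the knockdown calls fell to 0 without replicate 1 or 3 of F0_3NC or without replicate 3 of F0_5251KD. They were also 0 with limma, another tool, on log2(RPKM + 0.1), and 1 without replicate 1 of F0_5251KD. With overexpression edgeR called 0 of the 19 (median -0.20), with 2 at an unadjusted p under 0.05 against 8.77% of all genes. Per1 and Per2, which light and hormones can also induce, had log2 differences of 0.09 (95% interval -0.11 to 0.29) and -0.10 (-0.30 to 0.10) between the LV3 and LV5 groups. Markers of the epididymis, the duct beside the testis, also differed with the vector. Of the 9 listed 7 were in the table and 5 were tested. With edgeR 4 of the 5 were called, all lower in the LV3 groups (list median log2 difference -5.71), against 0.706% of all genes. Against F0_5NC, F0_3NC was lower for 4 of the 5 (list median -4.70). Of the 5, 4 were there at an unadjusted p under 0.05, against 11.9% of all genes, and 1 was called, against 0.331%. Between 1 and 3 of the 7 were at 0 in each LV3 library and 0 of the 7 in each LV5 library. The summed level of the 7 was 147 to 199 CPM in F0_3NC, 139 to 318 in F0_5NC, 166 to 183 in F0_5251KD and 182 to 265 in F0_5251OV, with overlap between the vectors. The part of the immediate early genes and of the epididymal RNA in the Bhlhe40 and Nfil3 values was not tested.

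**Figure D3:**
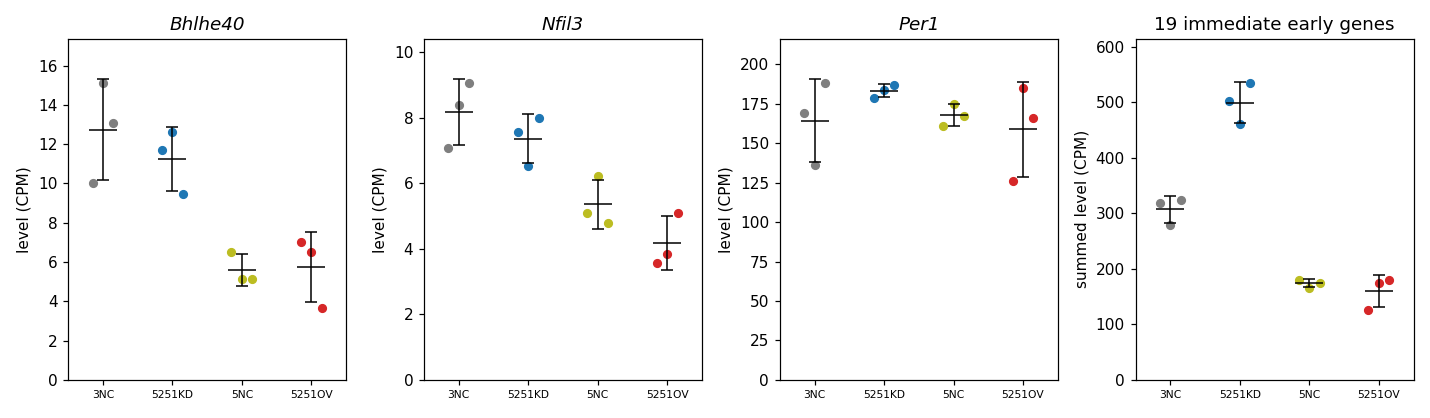
Levels in CPM (y axes, from 0) of Bhlhe40, Nfil3 and Per1, and the summed CPM of 19 immediate early genes, by group (x axis, prefix F0 left off). Points are libraries with mean ± SD of 3; Bhlhe40, Nfil3 and the immediate early sum separate the LV3 groups (F0_3NC, F0_5251KD) from the LV5 groups, and Per1 does not.

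Since these RNAs move together with the time of day in rhythmic tissues, the libraries of each group were compared with their own group mean. Pearson correlations of these deviations in log2 CPM were computed over the 12 libraries for all 45 pairs of the 10 genes, with exact permutation of the libraries within groups (1296 arrangements, two-sided, smallest possible p 0.000772). There were 26 positive and 19 negative pairs. At an unadjusted p under 0.05 there were 5 pairs, and 0 after adjustment over the 45, by Pearson or Spearman.

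The pairs with the largest r, in either direction, lay among the GC-rich Per1 and the AT-rich Clock and Nr1d2. Per1 and Clock had r = -0.82 (Spearman rho -0.84, exact permutation p = 0.00309, adjusted p = 0.139). Per1 and Nr1d2 had r = -0.85 (rho -0.79, exact permutation p = 0.027, adjusted p = 0.405). Nr1d2 and Clock, both AT-rich, had r = 0.85 (rho 0.79, exact permutation p = 0.00772, adjusted p = 0.174). In the 2 libraries set apart by GC, Per1 deviated by -0.26 and -0.32 on the log2 scale and Nr1d2 by 0.34 and 0.38. Without these 2 libraries, which also lie farthest from the median of Per1, r was -0.26 for Per1 and Nr1d2, which thus rested on them, -0.76 for Per1 and Clock and 0.72 for Nr1d2 and Clock. When the median deviation of genes of like GC content was removed from each library, a step chosen after seeing the data, the 3 correlations were -0.25, -0.54 and 0.58, and 0 of the 45 pairs passed adjustment.

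**Figure D4:**
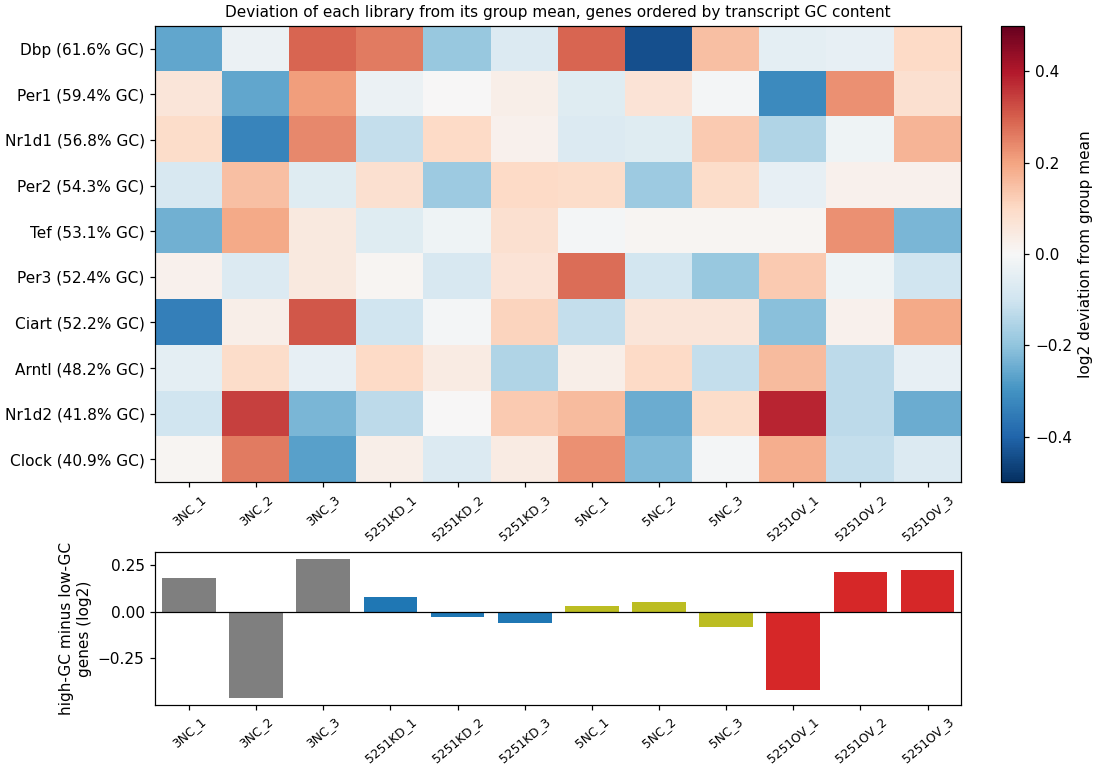
Upper panel, log2 deviation (colour) of each clock gene (rows, ordered by transcript GC content) from its group mean in each library (columns). Lower panel, median deviation of the 1489 GC-richest minus the 1489 GC-poorest genes (log2) by library; in replicate 2 of F0_3NC (-0.46) and replicate 1 of F0_5251OV (-0.42) Per1 and Nr1d1 are low and Nr1d2 and Clock high.

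Of the pairs that rhythmic tissues would set in like or opposite phase, none passed adjustment. Per1 and Arntl had r = -0.67 (rho -0.57, exact permutation p = 0.0363, adjusted p = 0.408), r = -0.19 without the 2 libraries farthest from the median of Per1, and r = -0.68 with the GC step. Per2 and Dbp had r = 0.60 (rho 0.50, exact permutation p = 0.143, adjusted p = 0.584), r = -0.03 without the 2 libraries farthest from the median of Per2, and r = 0.75 with the GC step (exact permutation p = 0.0224, adjusted p = 0.336). Dbp and Arntl had r = -0.13 (rho -0.01, exact permutation p = 0.698, adjusted p = 0.898), and 0.12 without the 2 libraries farthest from the median of Dbp. Nr1d1 and Arntl, repressor and target, had r = -0.61 (rho -0.59, exact permutation p = 0.0478, adjusted p = 0.431), r = -0.61 without the 2 libraries farthest from the median of Nr1d1, and r = -0.45 with the GC step. Per1 and Per2 had r = -0.29 (rho -0.41, exact permutation p = 0.283, adjusted p = 0.746), and -0.28 without the 2 libraries farthest from the median of Per1. Per1 and Nr1d1, which rise together where the clock runs, had r = 0.72 (rho 0.68, exact permutation p = 0.0856, adjusted p = 0.529), and r = 0.02 without the 2 libraries farthest from the median of Per1.

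**Figure D5:**
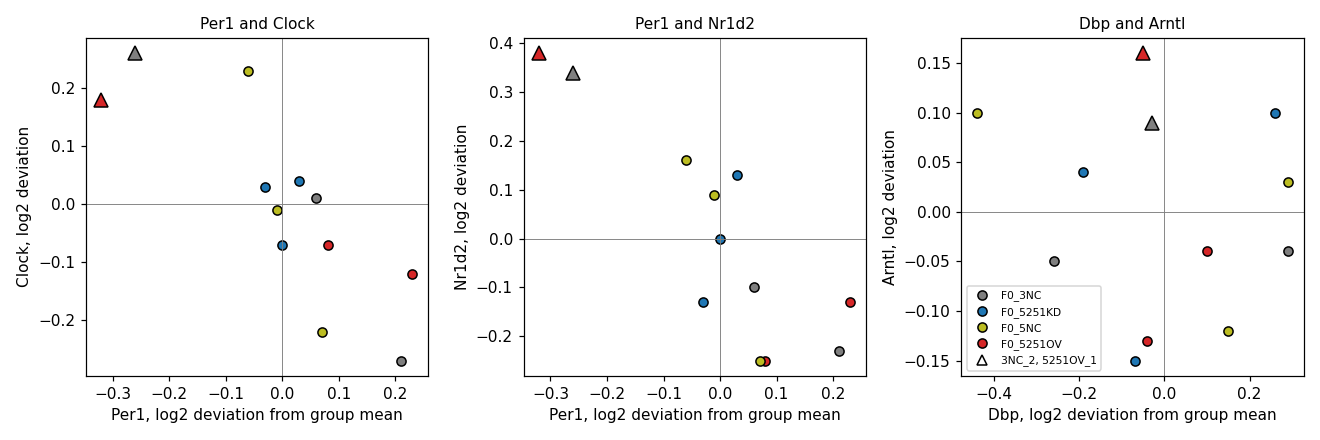
Log2 deviation from the group mean of Clock or Nr1d2 against Per1, and of Arntl against Dbp (axes), for 12 libraries coloured by group. Triangles are the 2 libraries set apart by GC, which hold the lowest Per1; Dbp and Arntl show r = -0.13.

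The genes whose levels most resembled those of 3 members over the 12 libraries were ranked by Pearson r in log2 CPM among 15164 genes whose mean reached 1 CPM, as a description with no test. For Per1 these were Zfp219 (0.96), Arhgap33 (0.95), Rnpepl1 (0.95), Klc3 (0.95) and Hdgfl2 (0.94), and the most opposed included Ccnc (-0.94) and Cnot7 (-0.92). The 5 like genes had transcripts of 56.5% to 63% GC and Ccnc and Cnot7 of 35.5% and 38.2%, the same contrast that set the pair of libraries apart. For Arntl the most similar were Ankrd31 (0.91), Tgs1 (0.89), Syt14 (0.89), Mgat4a (0.89) and Mrps14 (0.86), and the most opposed Egfl7 (-0.88), Pmf1 (-0.87) and Cxcr4 (-0.87). The genes like Arntl had transcripts of 39.6% to 44.8% GC and the opposed ones of 46.1% to 57.1%. For Dbp the most similar were Sars (0.89), Tmc4 (0.89), Rnaset2a (0.88), Hist1h1c (0.87) and Plekhh3 (0.87), and the most opposed Ttc21b (-0.93), Gria4 (-0.89) and Prl3c1 (-0.88). Transcripts of the genes like Dbp had 48.5% to 63.9% GC and those of the opposed ones 38.8% to 44.3%. None of the 10 clock genes and none of the 23 further ones was among the genes so named.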

How the data were processed

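Testis RNA of 12 libraries in 4 groups was analysed. Per the study's methods, poly(A) RNA was fragmented, copied with random hexamers and aligned with SOAPaligner, and the labels name mm10. The authors deposited estimated counts and RPKM values per gene, and 12.0% of the counts were not whole (tolerance 1e-06). The columns of the second unit do not name it. The methods call it RPKM, which is used here where the plan had FPKM. A further 18 columns match no sample and were not used.

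Estimated counts were rounded, filtered with filterByExpr and scaled by TMM (factors 0.970 to 1.078). All 12 libraries entered 1 quasi-likelihood fit of edgeR 4.0.16 (R 4.3.3; two-sided F test, 8 residual degrees of freedom), with p-values adjusted by the Benjamini-Hochberg method over all tested genes. CPM uses the TMM-scaled totals. Correlations used log2(CPM + 0.5). GC content is that of the longest GENCODE transcript of a symbol (97.8% of tested genes matched).

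The members, lists and alternatives were chosen with earlier results of these data known. Every member was tested in each comparison, and the text gives the values of some of them. Of the further clock genes those called, and the 1 with the smallest p per comparison, are named. The genes most like Per1, Dbp and Arntl are the 5 with the highest and 3 with the lowest r. One of these genes is not reported here. The alternatives tried were limma 3.58.1 on log2(RPKM + 1) and on log2(RPKM + 0.1), DESeq2 1.42.0, scaling by the upper quartile, dropping the filter or asking for 1 CPM in 3 samples, fitting the compared groups alone, a replicate block and leaving out each library. Removing GC-bin medians before the correlations (50 bins) was added after seeing the data. In simulated counts of the knockdown comparison (16173 genes), 71 of 100 genes with a 2-fold change and 98 of 100 with a 4-fold change were found, beside 15 false calls. The same simulation of the test between the knockdown and overexpression effects (16142 genes) found 45 of 100 at 2-fold and 83 at 4-fold, beside 8 false calls. Each simulation changed 200 genes drawn from all tested genes, where the knockdown test called 4. Many changed genes ease the adjusted threshold, so recovery in the data, and of clock genes with low counts, may be poorer.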

Additional observations from a re-analysis of the deposited data

How the results depend on the processing

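The count of clock genes called was 0 in each of the 6 tests under every alternative run, and none of the 800 alternative values of the 50 member differences passed an adjusted p of 0.05 (smallest 0.212, Dbp between the controls). Of these values 757 kept their direction. With limma, Per3 in the knockdown comparison turned to 0.004 on log2(RPKM + 1) and 0.006 on log2(RPKM + 0.1), and Clock in the overexpression comparison to -0.001 on log2(RPKM + 1). Leaving out libraries turned the sign of 22 differences at least once. Their ranges were, in the knockdown comparison, -0.072 to 0.009 for Per3, -0.240 to 0.069 for Nr1d2 and -0.157 to 0.183 for Ciart. In the overexpression comparison they were -0.197 to 0.068 for Per1, -0.098 to 0.040 for Per2, -0.208 to 0.041 for Per3, -0.211 to 0.022 for Tef, -0.112 to 0.229 for Nr1d2, -0.072 to 0.158 for Clock and -0.203 to 0.005 for Ciart. Between the controls they were -0.137 to 0.094 for Per1, -0.167 to 0.081 for Per3, -0.263 to 0.015 for Nr1d1, -0.062 to 0.244 for Nr1d2 and -0.260 to 0.082 for Ciart. For the LV3 against the LV5 groups they were -0.080 to 0.050 for Per3, -0.065 to 0.073 for Nr1d1, -0.084 to 0.123 for Nr1d2, -0.016 to 0.065 for Arntl and -0.120 to 0.050 for Ciart. For the difference of effects they were -0.062 to 0.175 for Per3 and -0.065 to 0.282 for Ciart.

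Of the further clock genes, the number called between the controls was 1, and 0 with upper-quartile scaling, 0 with the filter of 1 CPM, 0 with limma at either pseudocount, and 0 to 1 when a library was left out. For any difference among the groups it was 1, and 2 with DESeq2, 0 with limma at either pseudocount, and 0 to 2 when a library was left out (0 without replicate 2 or 3 of F0_3NC, 2 or 3 of F0_5NC, 1 or 2 of F0_5251KD or 2 of F0_5251OV, and 2 without replicate 3 of F0_5251OV). The cause was not tested. The 2 calls between the vectors held in all. Over all genes edgeR called 4, 0, 54, 115 and 0 in the knockdown, overexpression, control, vector and difference tests and DESeq2 20, 30, 138, 160 and 35, with 74 and 210 for any difference.

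Same-numbered libraries did not deviate together (r from -0.334 to 0.254, median -0.0189, over 18 pairs), so the replicate numbers were not used as pairs. With the replicate number as a block 0 of the 10 clock genes and 2, 0, 50, 89, 0 and 62 of all genes were called in the 6 tests.

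Depth limits Dbp, Arntl, Per2 and Ciart most, whose counts reached at most 158, 109, 153 and 140 in a library.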

Other observations

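The 12 listed glucocorticoid response genes (Per1 among them), some of which follow the daily rhythm of corticosterone in other tissues, differed little in sum. Their sum lay between 904 and 1033 CPM in F0_3NC, 868 and 1121 in F0_5NC, 956 and 1070 in F0_5251KD and 817 and 956 in F0_5251OV. With edgeR 0 of the 12 were called with knockdown and 0 with overexpression, with 2 and 1 at an unadjusted p under 0.05 against 4.74% and 8.77% of all genes. Between the controls and between the vectors 3 and 4 of the 12 were at an unadjusted p under 0.05, against 11.9% and 6.35% of all genes, and 9 and 11 of the 12 were higher in the LV3 libraries. In both of these 1 gene was called, against 0.331% and 0.706% of all genes. It was Errfi1, named after its values were seen, with log2 differences of 1.78 (adjusted p = 7.82e-07) and 1.81 (adjusted p = 6.51e-09). Errfi1 encodes a feedback inhibitor of the EGF receptor and is also induced by growth factors. The median of the list was 0.10 between the controls and 0.16 between the vectors.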
